A study of Mus musculus with 4 samples.

Results

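The 7 genes followed were Tssk1, Tssk2, Tssk3, Tssk4, Tssk5, Tssk6 and Tsks, taken by symbol from a list: the testis-specific serine kinase genes of the mouse and the gene of their substrate protein. All 7 were found among the 22552 gene symbols of each expression table. RNA had been sequenced from haploid cells of the testis, sorted by fluorescence after Hoechst staining of DNA and labelled round spermatids, from male mice at 23 days after birth. There were 2 wild-type libraries and 2 Sox30 knockout libraries. The strain label differed between the libraries, as DBA/C57/ICR for wild-type library 1, DBA/C58/ICR for knockout library 1, DBA/C59/ICR for wild-type library 2 and DBA/C60/ICR for knockout library 2. The labels give neither the part of Sox30 that was removed nor whether the 2 libraries of one genotype were from different animals, so each p-value reflects only how far these libraries differ, which may be technical. Levels are FPKM, fragments divided by transcript length and by a total for each library, so genes can be compared with each other. The sources used here do not state how that total was set.

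The testis-specific serine kinases, or TSSKs, are small protein kinases of the CAMK group that are made mainly in spermatids, the haploid cells that reshape into sperm. TSSK1 and TSSK2 bind and phosphorylate TSKS, the testis-specific kinase substrate, and male mice without both kinases are infertile. TSSK4 phosphorylates ODF2 of the sperm tail, and TSSK6 takes part in the exchange of histones for protamines in the sperm nucleus. SOX30, whose gene was knocked out, is a transcription factor of the SOX family, and the comparison asks which transcripts of spermatids differ without it.

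Tssk1 and Tssk2 lie next to each other on chromosome 16, on the same strand, and each has 1 exon in the GENCODE M21 annotation. They are the closest relatives among the members. Their coding sequences were identical at 75.6% of 1106 alignment columns. Of the windows of 50 bases begun at every base of the Tssk1 transcript, which overlap each other, 125 also occurred in that of Tssk2. No stretch of that length was shared by any other pair of members. The sources used here do not give how reads fitting both genes were assigned, so the separate values of Tssk1 and Tssk2 are uncertain to that extent. Just upstream of their starts the 2 genes also shared a run of sequence, shown because the 2 neighbours lost transcript to different degrees. The bases are from RefSeq (GRCm38.p6, plus strand), 5′ to 3′, with the bases identical in both genes in capitals. The Tssk1 run is chr16:17894150-17894201 and the Tssk2 run is chr16:17898574-17898622.
Tssk1: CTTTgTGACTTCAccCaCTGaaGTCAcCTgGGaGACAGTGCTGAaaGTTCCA
Tssk2: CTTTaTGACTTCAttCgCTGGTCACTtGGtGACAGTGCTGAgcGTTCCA
The runs end 2 bases before the start of Tssk1 and 15 bases before that of Tssk2, and 41 of 49 aligned bases were identical.

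Promoters were searched for ACAAT, the core letters that SOX proteins bind, for TGACGTCA, the cAMP response element bound by the spermatid activator CREM, and for its part TGACG, on both strands of the 250 bases before the start. RefSeq promoters were found for 6 members, not for Tssk5. ACAAT was present in 3 of the 6 (Tssk3, Tssk6 and Tsks), where 28.4% of 27025 promoters held it. It began 44 bases before the start of Tssk3 and, on the opposite strand as ATTGT, 43 bases before that of Tssk6. TGACG was found in Tssk6 alone, where 17.9% of promoters held it, and TGACGTCA in none of the 6, where 1.62% held it. These matches are descriptions of letters, not of binding. The Tsks stretch with its ACAAT in capitals (chr7:44942990-44943203, plus strand) and the Tssk4 window, shown as the promoter of the kinase gene that fell least and holding none of these letters (chr14:55649934-55650183, plus strand), read 5′ to 3′ as follows.
Tsks: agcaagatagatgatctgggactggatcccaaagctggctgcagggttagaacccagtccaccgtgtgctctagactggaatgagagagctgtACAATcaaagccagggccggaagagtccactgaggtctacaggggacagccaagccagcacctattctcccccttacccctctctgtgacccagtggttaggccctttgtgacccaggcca
Tssk4: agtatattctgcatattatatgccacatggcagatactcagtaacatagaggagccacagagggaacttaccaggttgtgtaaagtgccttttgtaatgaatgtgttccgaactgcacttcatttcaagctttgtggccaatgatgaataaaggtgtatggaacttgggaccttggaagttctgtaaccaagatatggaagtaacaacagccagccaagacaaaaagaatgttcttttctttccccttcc
The Tssk3 and Tssk6 windows are not printed, because all 250 bases of each lie inside annotated exons of GENCODE M21.

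The targeted gene checks the labels. Sox30 was at 11.4 and 16.2 FPKM in wild-type libraries 1 and 2 and at 1.46 and 3.16 FPKM in knockout libraries 1 and 2. Both knockout values lay below both wild-type values, with transcript still present (log2 change -2.19, SE 0.43, limma adjusted p = 0.0219). Log2 changes here and below are differences of log2(FPKM + 1), which understate the change of low genes. Ratios given as times or fold are of FPKM with nothing added, so values near 0 weigh heavily in them.

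All 7 members had both knockout values below both wild-type values, as did 38.6% of the 9124 genes tested. With a mean of at least 1 FPKM over the 4 libraries, 6 members were tested, and all 6 fell in the knockout at a limma adjusted p under 0.05, against 13.4% of the genes tested. Of these 6, 3 had a knockout mean under 1 FPKM and passed the filter only through their wild-type level, so the count describes these genes and is no independent support. The falls ranged from a few-fold in Tssk4 to a transcript listed at 0 in both knockout libraries in Tssk6. In these bulk samples fewer cells of a type and less RNA per cell cannot be told apart.

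**Figure D1:**
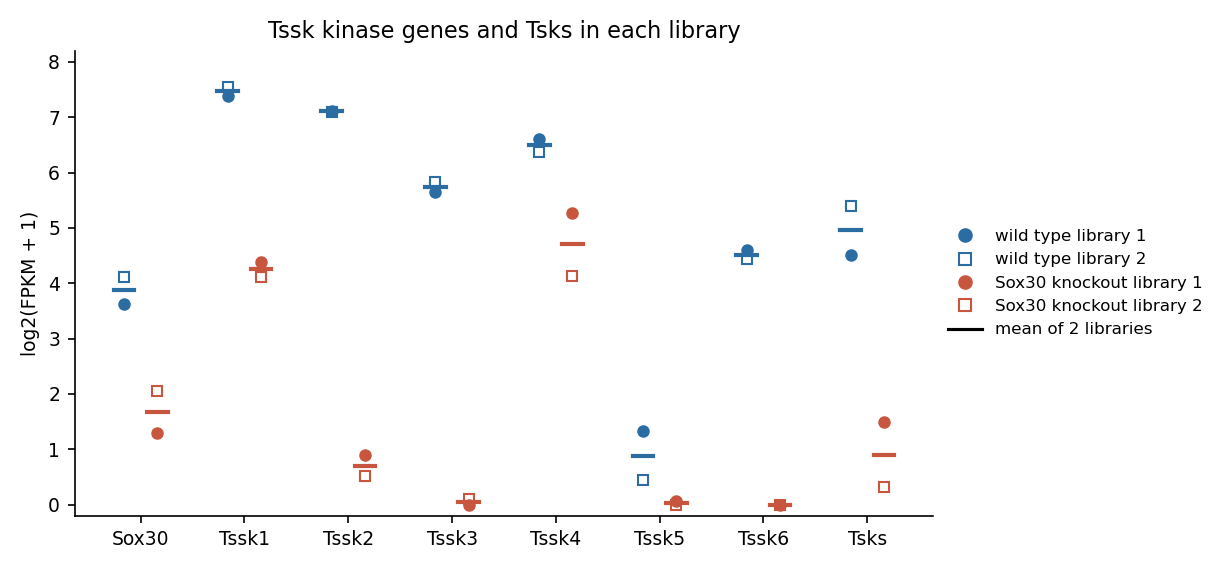
Levels of Sox30, the 6 Tssk genes and Tsks in each library, as log2(FPKM + 1). Filled circles are library 1 and open squares library 2 of each genotype, and bars are the means of 2 libraries. For every gene shown, both knockout points lie below both wild-type points, and Tssk1 and Tssk4 keep the highest knockout levels.

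Tssk1, the most abundant member, was at 165 and 187 FPKM in wild-type libraries 1 and 2. In knockout libraries 1 and 2 it was at 19.99 and 16.3 FPKM. The wild-type mean of 176 ± 15.3 FPKM (SD, n = 2) was 9.71 times the knockout mean of 18.1 ± 2.63 FPKM (SD, n = 2). The libraries of each genotype lay close together, and the log2 change was -3.21, with an SE of 0.29 (limma adjusted p = 0.00140). Tssk1 was thus reduced but not lost: it exceeded 97.0% and 97.6% of symbols in the wild-type libraries and still exceeded 88.1% and 88.2% in the knockout libraries.

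Tssk2, its neighbour and partner in binding TSKS, started from nearly the same level and lost far more. The wild-type libraries held 137 and 136 FPKM, and the knockout pair held 0.851 and 0.429 FPKM. The wild-type mean was 213 times the knockout mean, and the log2 change was -6.40, with an SE of 0.33 (limma adjusted p = 0.000480). Its place among all symbols went from above 96.4% and 96.7% to above 61.9% and 61.1%. The ratio of Tssk1 to Tssk2 therefore moved from 1.20 and 1.38 in the wild type to 23.5 and 37.9 in the knockout. The ratios of the 2 genotypes did not overlap, but 2 libraries against 2 cannot give a two-sided exact permutation p below 0.333, and no model was fitted to the difference between the 2 genes.

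Tsks, the substrate gene on chromosome 7, was the member with the widest spread between libraries among those tested. The wild-type libraries differed 1.89-fold, at 21.8 and 41.3 FPKM, and the knockout libraries 7.53-fold, at 1.81 and 0.240 FPKM. The genotypes did not overlap, and the log2 change was -4.06 (SE 0.55, limma adjusted p = 0.00560). The wild-type mean was 30.9 times the knockout mean (most of which came from knockout library 1). Set against Tsks, Tssk2 fell, with a ratio of 6.28 and 3.29 in the wild type and 0.472 and 1.79 in the knockout. The ratio of Tssk1 to Tsks was 7.57 and 4.52 against 11.1 and 67.8. That rise lay mostly in knockout library 2, where Tsks was at 0.240 FPKM. As a difference of log2(FPKM + 1), Tssk1 against Tsks was 2.903 in knockout library 1, close to 2.863 in wild-type library 1. It was 2.15 in wild-type library 2 and highest in knockout library 2. The differences between ratios were not tested across genes.

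Tssk3, on chromosome 4, encodes a kinase reported to be activated by PDK1. Its wild-type levels were 49.3 and 55.7 FPKM. Knockout library 1 listed it at 0 and knockout library 2 at 0.0696 FPKM (limma adjusted p = 0.000523). Tssk6, on chromosome 8, had wild-type levels of 23.3 and 20.5 FPKM, whereas each knockout library listed it at 0 (limma adjusted p = 0.000914). Both genes were within 1.14-fold between the wild-type libraries and were at or near 0 in both knockout libraries. No fold is given for them, because a value of 0 in FPKM can also be a failed estimate: of 73 ribosomal protein symbols, which every cell uses, 5 and 1 were listed at 0 in wild-type libraries 1 and 2 and 2 and 4 in knockout libraries 1 and 2.

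Tssk4, on chromosome 14, kept the most of its transcript. Wild-type levels of 96.3 and 82.0 FPKM stood against 37.6 and 16.5 FPKM without Sox30. The groups did not overlap, although the knockout libraries differed 2.28-fold. The wild-type mean was 3.29 times the knockout mean, and the log2 change was -1.79 (SE 0.44, limma adjusted p = 0.0469). This call lies at the threshold: it ended with a pseudocount of 0.1 (limma adjusted p = 0.0759), with no mean-variance trend (0.0556) and with no filter on low values (0.113). It exceeded 95.2% and 94.8% of symbols in the wild-type libraries, 91.7% in knockout library 1 and 88.3% in knockout library 2.

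Tssk5, on chromosome 15, was scarce in the wild type and not tested. Its wild-type levels were 1.503 and 0.360 FPKM, knockout library 1 held 0.0403 FPKM and knockout library 2 listed it at 0. The wild-type libraries differed 4.17-fold. Tested with no filter on low values it had a log2 change of -0.86 (limma adjusted p = 0.221), which did not pass.

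The make-up of the family differed between genotypes. The 6 kinase genes together came to 473 and 481 FPKM per wild-type library, and to 58.5 and 33.3 FPKM per knockout library. Tssk1 made up 34.9% and 38.8% of the wild-type sum, Tssk2 29.0% and 28.2%, Tssk4 20.4% and 17.0%, Tssk3 10.4% and 11.6% and Tssk6 4.94% and 4.27%. In the knockout the sum was almost all Tssk1 and Tssk4. Tssk4 made up 64.3% and 49.6% of it and Tssk1 34.2% and 48.9%, with Tssk2 at 1.46% and 1.29%. In the wild type the order from high to low was Tssk1, Tssk2, Tssk4, Tssk3, Tssk6 and Tssk5 in both libraries, and the values of neighbours in this order did not overlap. In the knockout Tssk4 and Tssk1 overlapped, at 37.6 and 16.5 against 19.99 and 16.3 FPKM, and the rest lay below 1 FPKM.

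**Figure D2:**
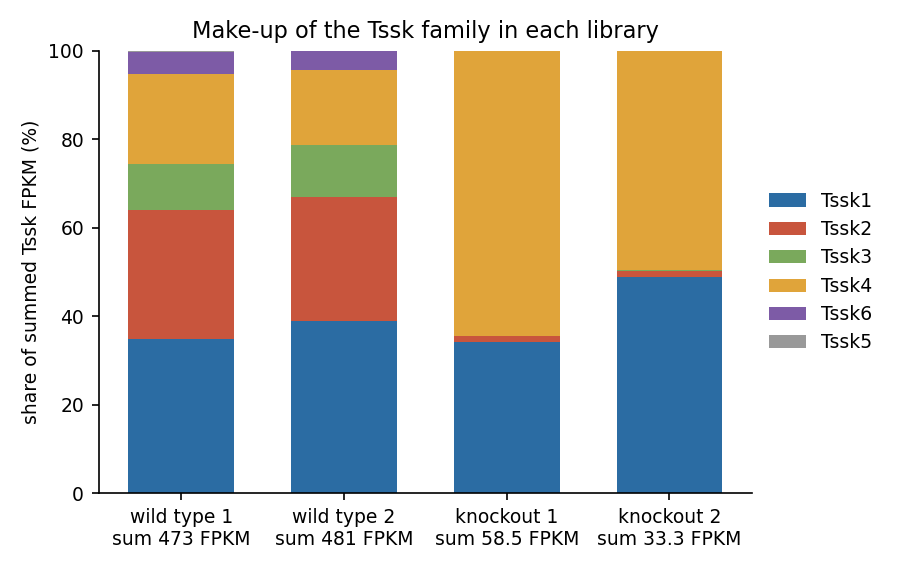
Share of each Tssk gene in the summed FPKM of the 6 Tssk genes, for each library, with the sum under each bar. Each gene but Tssk5 has a visible share in the wild-type bars, while the knockout bars hold almost nothing but Tssk1 and Tssk4.

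Loss to near 0 was uncommon among genes above a lower bound of wild-type level. Both wild-type libraries held at least 20 FPKM, a bound set after the members' values were seen, for 2709 symbols. There was no upper limit, so genes far more abundant than the members were included, and the shares are not matched to the members' levels. Of the 2709, 139 (5.13%) had less than 1 FPKM in each knockout library and 49 (1.81%) were listed at 0 in each. The bound was met by 6 members, of which 3 (Tssk2, Tssk3 and Tssk6) had both knockout values under 1 FPKM. When the bound was put on the wild-type mean, 17.0% of 2961 genes fell at a limma adjusted p under 0.05. Genes with less than 1 FPKM in each knockout library were thus a minority above the bound.

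**Figure D3:**
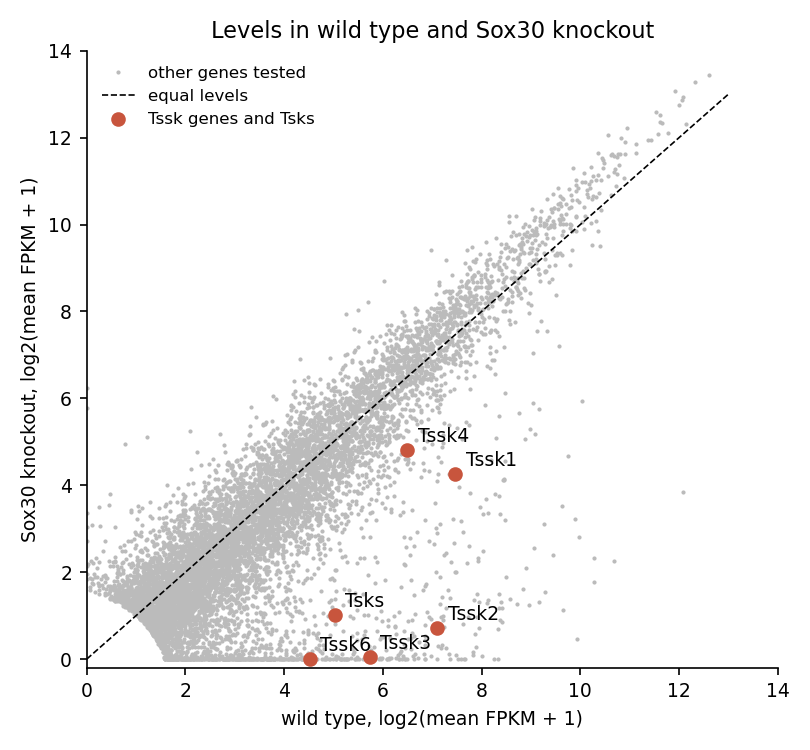
Mean level in the knockout against mean level in the wild type, both as log2(mean FPKM + 1), for the 9124 genes tested. The 6 tested members lie below the dashed line of equal levels, with Tssk4 nearest to it and Tssk3 and Tssk6 on the lower edge.

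Genes described as partners, activators or substrates of these kinases were called about as often as genes in general. Of 11 listed, 10 were tested, 1 fell (13.4% of all genes tested fell), 0 rose and 9 did not pass, with a median log2 change of -0.31 against -0.23 over all genes tested. Tsacc, listed as 1700021C14Rik, encodes the co-chaperone that activates TSSK6 together with HSP90. It was among the abundant transcripts in every library, with 1180 and 910 FPKM in wild-type cells, and 1518 and 2491 FPKM in knockout cells, where Tssk6 itself was listed at 0 (limma adjusted p = 0.139 for Tsacc). The gene that fell was Pdpk1, for PDK1, which activates many kinases by phosphorylation. Pdpk1 went from 19.8 and 19.2 FPKM to 0.688 and 1.52 FPKM, with a log2 change of -3.32 (limma adjusted p = 0.00303). Odf2, for the sperm tail substrate of TSSK4, overlapped between genotypes, at 434 and 657 FPKM in wild-type and 771 and 498 FPKM in knockout cells (limma adjusted p = 0.718). A p above the threshold with 2 libraries a genotype does not show that a level stayed the same.

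The next list was that of other kinases of the CAMK group, to which the TSSKs belong. Of 53 listed genes 52 were in the tables and 19 were tested, of which 1 fell, 0 rose and 18 did not pass, against 13.4% lower and 1.95% higher over all genes tested, with a median log2 change of -0.06. The one that fell was Camk4, a calcium and calmodulin dependent kinase of spermatids. Its wild-type levels were 2.62 and 2.43 FPKM, and the knockout libraries held 0 and 0.00890 FPKM (limma adjusted p = 0.0120). The 2 most abundant were Phkg2, the catalytic subunit of phosphorylase kinase in testis and liver, and Stk33. Phkg2 levels were 115 and 100.2 FPKM with Sox30, and 98.8 and 333 FPKM without it (limma adjusted p = 0.416). Stk33 levels were 102 and 123 FPKM with Sox30, and 92.7 and 80.7 FPKM without it (limma adjusted p = 0.420). Stk33 levels in the knockout lay below those of the wild type without passing, and Phkg2 overlapped. Before adjustment 6 of the 19 had a limma p under 0.05, some lower and some higher in the knockout.

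Protein phosphatases, which act against kinases, were mixed. Of 29 listed 26 were tested, 5 fell (against 13.4% of all genes tested), 1 rose and 20 did not pass, with a median log2 change of -0.69. The count of 5 is not far from that background and is not read as a trait of the list. Dusp21, a dual-specificity phosphatase, had 23.4 and 13.03 FPKM in wild-type cells, and like Tssk6 it was listed at 0 in each knockout library (limma adjusted p = 0.00178). Dusp3 fell from wild-type levels of 6.33 and 4.52 FPKM, reaching 0.102 and 0.0273 FPKM (limma adjusted p = 0.00516). Ppp3r1, a regulatory subunit of calcineurin, held 3.06 FPKM in each wild-type library, 0.0590 FPKM in knockout library 1 and 0 in knockout library 2 (limma adjusted p = 0.00917). Both Ppef1 and Ppp2ca, the catalytic subunit of protein phosphatase 2A, also fell, with log2 changes of -1.72 and -1.51 (limma adjusted p = 0.0460 and 0.0432). Dusp15 rose, from 11.3 and 8.01 FPKM to 25.4 and 34.8 FPKM (log2 change 1.54, limma adjusted p = 0.0385), where 1.95% of the genes tested rose. The most abundant were Ppp1r11 and the testis calcineurin subunit Ppp3r2, which did not pass. Ppp1r11 levels were 530.2 and 424 FPKM with Sox30, and 758 and 951 FPKM without it (limma adjusted p = 0.110). Ppp3r2 levels were 262 and 240.4 FPKM with Sox30, and 285 and 353 FPKM without it (limma adjusted p = 0.442).

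**Figure D4:**
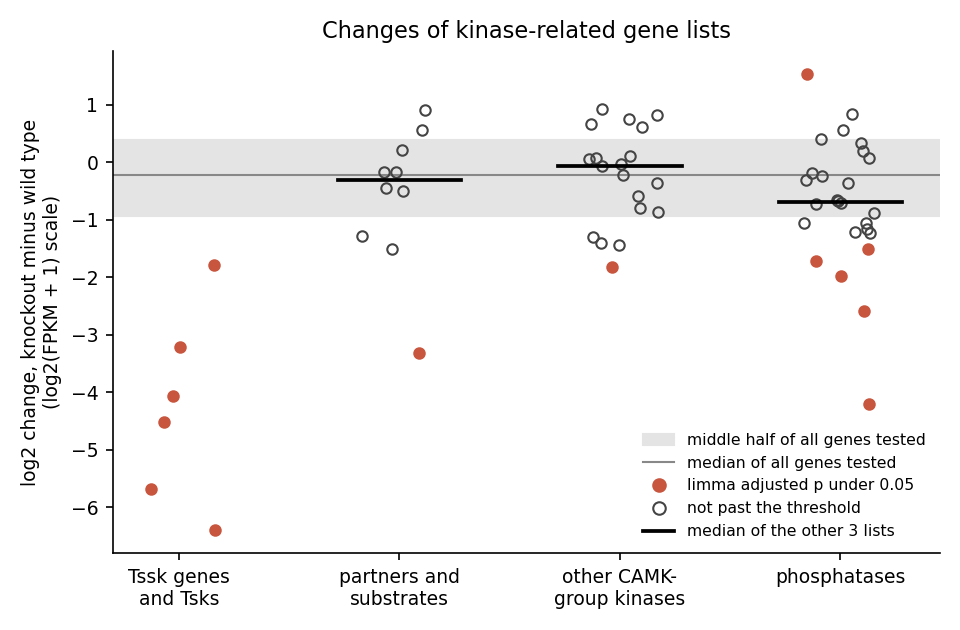
Log2 change, knockout minus wild type on the log2(FPKM + 1) scale, of each tested member and each tested gene of 3 related lists. Filled points passed a limma adjusted p of 0.05, short bars are the medians of the 3 lists, and the grey band runs from the lower to the upper quartile of all genes tested. The 6 members lie from -1.79 down to -6.40, while most genes of the other lists lie in or near the band. Camk4, Pdpk1, Ppp3r1, Dusp3 and Dusp21 of the other lists lie lower than Tssk4.

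Genes next to the members on the chromosome were read from the same fit. Of 14 nearest or overlapping genes that are no members, 11 were tested, 3 fell (against 13.4% of all genes tested), 0 rose and 8 did not pass. Upstream of Tssk3, on the opposite strand and pointing away from it, lies 1700125D06Rik, now named Fam229a. Its levels of 1167 and 830 FPKM with Sox30 stood against 8.67 and 3.26 FPKM without it. The log2 change was -7.26, with an SE of 0.46 (limma adjusted p = 0.000573). The 2 divergent genes were thus both low in the knockout, whereas Bsdc1, on the other side of Tssk3, was at 4.40 and 6.58 FPKM against 2.88 and 0.247 FPKM and did not pass (limma adjusted p = 0.149).

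On chromosome 16 Dgcr2, which overlaps Tssk1 on the opposite strand, fell in the knockout (limma adjusted p = 0.0135). Dgcr2 also lies upstream of Tssk2 across a gap of 74 bases, pointing away from it. Tssk2 and Dgcr2 are thus divergent genes that were both low in the knockout, like Tssk3 and Fam229a. Dgcr2 levels were 7.30 and 11.2 FPKM with Sox30, and 1.14 and 0.127 FPKM without it. Dgcr14, now Ess2, on the other side of Tssk2, overlapped between genotypes (limma adjusted p = 0.738), with 5.89 and 9.63 FPKM in wild-type and 11.2 and 7.29 FPKM in knockout cells. The Tssk1 and Dgcr2 exons share 63 bases of the Tssk1 transcript of 3700 bases. On chromosome 8 Tssk6 shares 375 bases of its 1335 with exons of Ndufa13, a gene for a subunit of respiratory complex I on the opposite strand. Ndufa13 held 142 and 107 FPKM with Sox30, and 126 and 169.6 FPKM without it (limma adjusted p = 0.628), so the overlapping gene was abundant where Tssk6 was listed at 0. Gatad2a, beyond Tssk6, fell as well (limma adjusted p = 0.0152), with 5.26 and 9.40 FPKM in wild-type and 0.781 and 0.571 FPKM in knockout cells. The sources used here do not say whether strand was used in counting, so reads of overlapping genes cannot be told apart.

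Beside Tsks lie Ap2a1 and Cpt1c, and both overlapped between genotypes (limma adjusted p = 0.609 and 0.802). Ap2a1 levels ran from 4.74 to 20.01 FPKM over the 4 libraries, and Cpt1c levels from 10.9 to 36.5 FPKM. Tm9sf1, next to Tssk4, also overlapped (limma adjusted p = 0.752). Next to Tssk5, Fam203a and Heatr7a each had both knockout values above both wild-type values, as did 22.2% of the genes tested, without passing (limma adjusted p = 0.217 and 0.216). Fam203a levels were 12.4 and 18.7 FPKM with Sox30, and 23.7 and 28.4 FPKM without it. The remaining neighbours, Car15, Mdp1 and Cilp2, were below the filter.

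**Figure D5:**
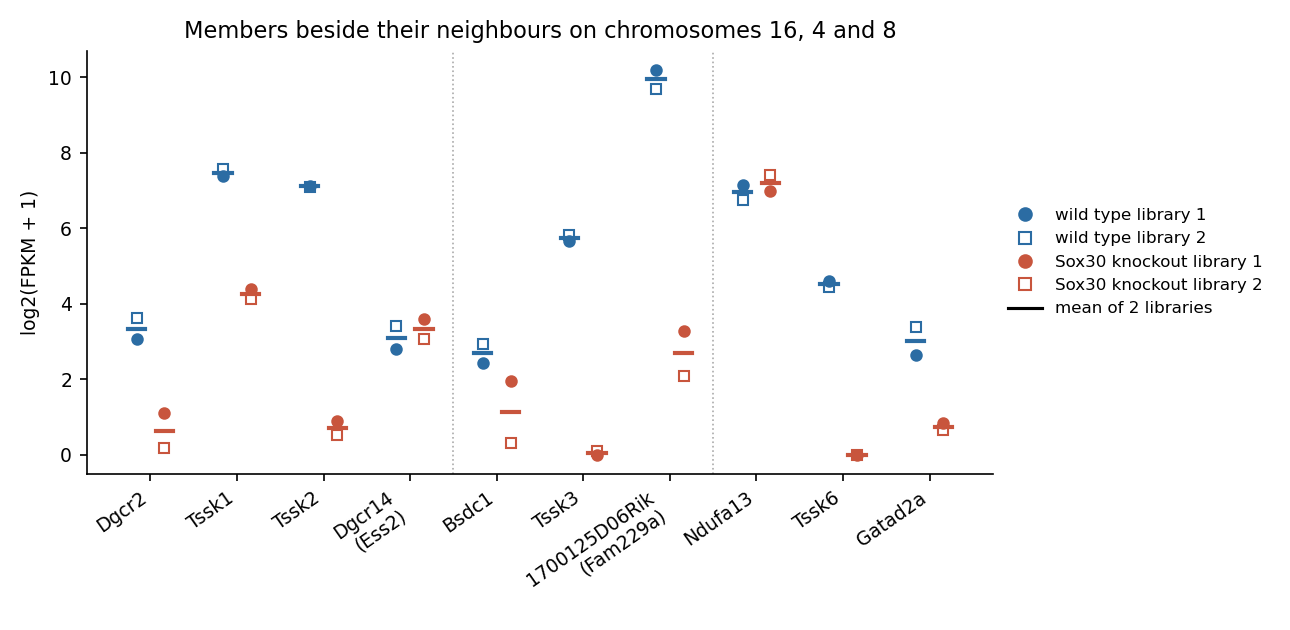
Levels of Tssk1, Tssk2, Tssk3 and Tssk6 and of genes beside or overlapping them, as log2(FPKM + 1), ordered by gene order on chromosomes 16, 4 and 8 with dotted lines between chromosomes. Fam229a is low in the knockout together with Tssk3, and Dgcr2 together with Tssk2, while the levels of Dgcr14 and Ndufa13 overlap between the genotypes.

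The genes whose levels were most like each member's over the 4 libraries were found by the distance of their log2(FPKM + 1) values, a description with no test. Nearest to Tssk1 were Znrf4, at a distance of 0.22, and Ccdc46, at 0.74. Znrf4 levels were 157 and 166 FPKM with Sox30, and 18.8 and 17.4 FPKM without it. Cst13 lay at a distance of 0.64 from Tssk2. Nearest to Tssk3 were Tuba8 (0.26), an alpha tubulin, and Aqp7 (0.39), a water and glycerol channel. Tssk4 was closest to Ttc23l (0.41) and Phyhipl (0.44). Tssk6 was closest to Tmem95 (0.16), for a sperm membrane protein needed for fertilization, and to Hbb-b1 (0.17), a globin gene. Tsks was closest to Tmc7 (0.34), which was also higher in wild-type library 2 and in knockout library 1 (23.3 and 39.6 FPKM in the wild type, 1.46 and 0.0381 FPKM in the knockout), and to Plin2 (0.81).

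The libraries differed in more than these genes. The absolute depth is unknown. Steps between low values put the totals that the other libraries were divided by at 1.17 to 1.393 times that of wild-type library 1. From 11.4% to 17.7% of the low values compared lay on such steps. Because how the total was set is not stated, these ratios need not be ratios of depth. Symbols listed at 0 numbered 6414 and 5915 in the wild-type and 9329 and 11112 in the knockout libraries. Of all genes tested 13.4% fell, the share to set beside each count of lower markers that follows. All 10 round spermatid markers were tested and 8 fell, and their sum was 10290 and 6536 FPKM with Sox30, and 461 and 289 FPKM without it. All 10 had both knockout values below both wild-type values, as did 38.6% of the genes tested. Acr and Zpbp did not pass. Acr was at 348 and 273 FPKM with Sox30, and 162 and 108 FPKM without it. Zpbp was at 213.5 and 189 FPKM with Sox30, and 180 and 109 FPKM without it. The defining markers of the labelled cell type were thus lower in the knockout libraries, though not all passed, and none of the 10 was at 0 in both of them. Spermatocyte markers summed to 500.2 and 481 FPKM against 574 and 442 FPKM, with 1 of 10 lower. Of these 10, 7 had both knockout values below both wild-type values, against 38.6% of the genes tested. Ccna1, at 163 and 192 against 369 and 210.0 FPKM, went the other way. Without Ccna1 the sum was 337 and 288 FPKM with Sox30, and 204 and 232 FPKM without it. Of 7 spermatogonial markers 4 were tested and all 4 fell, with sums of 64.8 and 66.8 against 16.4 and 10.99 FPKM and 4 of the 7 (Dmrt1, Zbtb16, Stra8 and Kit) listed at 0 in each knockout library. Leydig markers summed to 60.1 and 37.4 FPKM in the wild type, to 0.0674 FPKM in knockout library 1 and to almost 0 in knockout library 2, with 2 of 2 tested lower, and blood and macrophage markers to 248 and 131 against 9.32 and 0.283 FPKM, with 2 of 3 tested lower. Sertoli markers, of which 5 of 6 were in the tables and 1 was tested, summed to 9.80 and 37.5 against 16.6 and 5.34 FPKM. The part of these differences in the falls of the Tssk genes and Tsks was not tested.

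The calls rest on 2 libraries per genotype. Without wild-type library 1, 2 of the 6 members passed (Tssk3 and Tssk6), and without wild-type library 2, 0 passed in the limma fit, with 5 at an unadjusted p under 0.05. The log2 change of Tssk2 was -6.39 without wild-type library 1 and -6.41 without wild-type library 2, and that of Tsks -4.50 and -3.61. Tssk4 fell by 1.22 without knockout library 2 and by 2.36 without knockout library 1.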

How the data were processed

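Per the labels' protocols, sequencing libraries came from an NEBNext Ultra RNA kit. The authors deposited 1 table of FPKM per library, with 23021 entries and 22552 symbols, of which 259 on more than 1 entry were summed. Build mm9 and the tools Cuffdiff, Cufflinks 2.0.2 and TopHat2 2.0.6 are listed in the submitters' processing notes, and their roles and settings are not stated there. Groups came from the sample titles. Values were used as log2(FPKM + 1), unscaled, for 9124 genes with a mean of at least 1 FPKM, in limma 3.58.1 (R 4.3.3, empirical Bayes with a mean-variance trend, genotype as the only term). Two-sided p-values were adjusted by Benjamini-Hochberg over the 9124 genes, with a threshold of 0.05. The fit was tested on simulated data. The members and lists were chosen with earlier results of these data known. Named genes were Sox30, the members, up to 6 called genes and the 2 most abundant of each list, the 2 genes nearest to each tested member by Euclidean distance (clone-like symbols left out) and the neighbours. A gene named by this rule is not reported here. Annotation came from GENCODE M21 and promoters from RefSeq, both GRCm38 and matched by symbol, so no gene coordinates of the authors' build are given. Motifs were searched in all 250 bases, and the sequences printed were taken only from stretches outside annotated exons. Coding sequences were aligned as DNA. Depth is not known beyond the ratios of the library totals, so no counting intervals are given.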

Additional observations from a re-analysis of the deposited data

How the results depend on the processing

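Alternatives were a pseudocount of 0.1 or of 5, omitting the filter, requiring a mean of at least 5 FPKM, median-ratio scaling, quantile normalization, no mean-variance trend, robust empirical Bayes, a lowess correction on transcript GC content, the library number as a replicate block, the same numbers crossed (added after seeing the data) and leaving out each library. In all 90 such fits of the 6 tested members the change was negative. Because both knockout values of each member lay below both wild-type values, most of these settings could not alter the sign. Only median-ratio scaling, quantile normalization and the GC correction could have done so. Outside the fits that left out a library 5 or 6 members passed, with Tssk4 the one lost. For Tssk1, Tssk2, Tssk3, Tssk6 and Tsks the highest limma adjusted p over those settings was 0.0144, 0.0104, 0.0104, 0.0143 and 0.0427. The pseudocount set the size of the change for low knockout levels, from -2.43 to -7.78 for Tssk6 and from -3.51 to -8.65 for Tssk3. Leaving out 1 library gave from 0 to 6 members, 0 to 6 CAMK-group genes, 0 to 3 partner and substrate genes, 0 to 12 phosphatases and 0 to 3071 of all genes lower in the knockout, and a Sox30 change from -2.57 to -1.81. Of all genes 1412 had an unadjusted p under 0.05 where 0 passed in limma. With 1 knockout library left only the wild-type pair gave a spread, and a lone library was assumed to vary like the other group. The count of all genes lower was 787 with a mean of at least 5 FPKM. CAMK-group genes lower numbered 3 with no filter, 2 with the GC correction, and 0 both with a mean of at least 5 FPKM and after quantile normalization, where limma gave 2 and 5 at an unadjusted p under 0.05. Phosphatases lower numbered 3 with a pseudocount of 0.1, with no filter, after quantile normalization and with the replicate block, and 2 with a mean of at least 5 FPKM. Sox30 had a limma adjusted p of 0.0660 with no filter (change -2.19). Quantile normalization changed the split of calls from 1221 lower and 178 higher to 979 and 615, and took the median change over all genes tested to 0.20, from -0.23. Relative to that median Tssk1 was at -2.99 before and -3.22 after it, and Tssk4 at -1.56 and -1.73. The library numbers share only a number: same-numbered deviations correlated at -0.20, the replicate block left 6 members and 1056 genes lower against 1221, and the crossed pairing left 6 members, 2 CAMK-group genes and 1416 genes lower. No counts were used, so the precision of values below 1 FPKM is unknown.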
